A study of Bos grunniens with 6 samples.

Results

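SMO, PTCH1 and GLI1 are the transducer, the receptor and a transcriptional effector of the Hedgehog pathway, and their transcripts were followed in cultured dermal papilla cells (DPC) and hair matrix cells (HMC) of the yak (Bos grunniens). The 3 genes were chosen by name, as the rows with the symbols SMOH (SMO), PTCH (PTCH1) and GLI (GLI1) among the 15646 genes of a deposited FPKM table (fragments scaled to gene length and to the mapped total). Each symbol had 1 row, all 3 rows carry the table's pathway term for Hedgehog signaling, and the SMOH row also carries the term patched binding. The row called Smo is not the transducer: it is spermine oxidase, a polyamine enzyme, and it is kept apart below.

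Hedgehog ligands are secreted proteins that bind the membrane receptor PTCH1, and without ligand PTCH1 holds the membrane protein SMO inactive. Ligand binding releases SMO, which moves into the primary cilium and stops the processing of GLI2 and GLI3 into repressors, so that GLI proteins turn on target genes, among them GLI1 and PTCH1 themselves. In the hair follicle, Sonic hedgehog from the matrix epithelium acts on that epithelium and on the dermal papilla beneath it, and the signal is needed for follicle growth.

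The study comprised 6 libraries, 3 of DPC (labelled as a dermal cell) and 3 of HMC (labelled as an epidermal cell), all from skin and all of genotype WT. Both cell types had been isolated and grown in the same DMEM/F12 medium, with antibiotics, serum (10% FBS), EGF at 20 ng/mL and IGF1 at 10 ng/mL, so the 2 growth factors and serum were common to every library, and no Hedgehog ligand or inhibitor is among the listed additions. The labels call the 3 libraries of a group biological replicates but do not say whether they came from separate animals, so p-values measure the spread between these libraries, which may in part be technical. Reads recovered from the steps of the FPKM values came to 13098760 to 13999664 per library. The sum of FPKM over all genes ranged from 548897 to 554803 in the DPC libraries and from 647963 to 651773 in the HMC libraries. The labels were checked against marker lists. All 8 fibroblast markers found in the table were higher in DPC, against 29.7% of all tested genes (summed level 18830 to 19620 FPKM against 607.8 to 719.3 in HMC). Of 10 epithelial markers, 9 were higher in HMC, against 46.2% of all tested genes (13700 to 14100 FPKM against 80.05 to 104.1 in DPC). The exception was KRT14, a basal keratin, at 16.5, 12.4 and 19.7 FPKM in DPC and 15.4, 14.7 and 14.9 in HMC, while KRT7, KRT8 and KRT19, keratins of simple epithelia, were the most abundant of the list in HMC. The epithelial markers CDH1, EPCAM and TP63 had means under 0.5 FPKM in DPC, so the filter of the test given below had set their direction. In cultured bulk samples such as these, fewer cells of a type and less RNA per cell cannot be told apart.

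SMO was abundant in DPC and low in HMC, GLI1 was low in DPC and at or next to 0 in HMC, and PTCH1 went the other way, with a mean level in HMC 2.92 times that in DPC. All 3 genes passed the test, which was limma on log2(FPKM + 1) over the 11883 genes whose mean over the 6 libraries reached 0.5 FPKM, at a Benjamini-Hochberg adjusted p of 0.05. Of those genes 75.9% were called in either direction, 29.7% as higher in DPC and 46.2% as higher in HMC, so being called was common and the sizes of the differences carry more than the calls. For no overlap of FPKM between the groups, which all 3 genes also showed, the shares were 30.8% higher in DPC and 47.1% higher in HMC. SMO and PTCH1 had means above the 0.5 FPKM filter in both cell types, whereas GLI1 entered the test through its DPC libraries alone and so had to differ. With 3 libraries against 3, an exact two-sided permutation test of a single gene cannot go below 0.10.

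**Figure D1:**
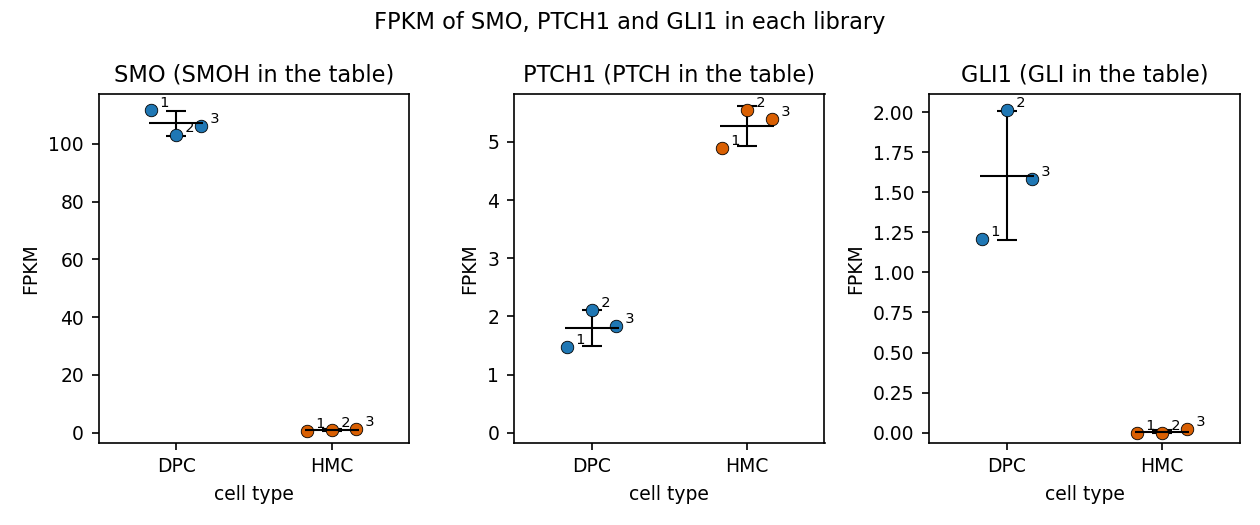
FPKM (y axis, linear, a separate scale in each panel) of SMO, PTCH1 and GLI1 in the 3 DPC and 3 HMC libraries (x axis). Points are libraries with their replicate numbers, horizontal lines are means and bars are SD (n = 3). SMO and GLI1 lie higher in every DPC library and PTCH1 in every HMC library.

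PTCH1 (PTCH in the table, ENSBGRG00000009313), the receptor, stood at 1.48, 2.10 and 1.84 FPKM in DPC replicates 1, 2 and 3 and at 4.89, 5.55 and 5.40 FPKM in HMC replicates 1, 2 and 3. The groups did not overlap, and the lowest HMC library lay above the highest DPC library. The DPC mean was 1.81 ± 0.312 FPKM and the HMC mean 5.28 ± 0.347 FPKM (SD, n = 3 per group). The difference, DPC minus HMC, was -1.17 on the log2(FPKM + 1) scale (SE 0.10, 95% interval -1.40 to -0.93, limma adjusted p = 1.24e-05). These values rested on 87, 121 and 107 reads in DPC and on 295, 339 and 333 reads in HMC. Summed over libraries, the depth-scaled read level in HMC was 2.93 times that in DPC (95% exact binomial interval 2.58 to 3.34, which covers counting error only). Among the 11883 tested genes, 1637 had a larger difference toward HMC on this scale, so many genes differed more than the receptor did.

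SMO (Smoh in the table, ENSBGRG00000009570), the seven-pass membrane protein that PTCH1 restrains, stood at 111.9, 103.2 and 106.2 FPKM in DPC replicates 1, 2 and 3. In HMC replicates 1, 2 and 3 it stood at 0.692, 0.785 and 1.38 FPKM. Every DPC library was far above every HMC library, and HMC replicate 3 was the highest of its group. The DPC mean was 107.1 ± 4.42 FPKM and the HMC mean 0.952 ± 0.373 FPKM (SD, n = 3 per group). The difference was 5.81 on the log2(FPKM + 1) scale (SE 0.12, 95% interval 5.52 to 6.09, limma adjusted p = 1.93e-09). The reads behind them numbered 4256, 3842 and 4003 in DPC and 27, 31 and 55 in HMC, a ratio of depth-scaled read levels of 112 (95% exact binomial interval 93.3 to 136, counting error only). Only 14 of the 11883 tested genes had a larger difference toward DPC. In the DPC libraries SMO lay between percentiles 94.8 and 95.1 of all genes in the table, and in the HMC libraries between percentiles 28.4 and 33.0.

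GLI1 (GLI in the table, ENSBGRG00000006415), a zinc-finger transcription factor that is also a target of the pathway, stood at 1.21, 2.02 and 1.58 FPKM in DPC replicates 1, 2 and 3. In HMC it was at 0 in replicates 1 and 2 and at 0.0214 FPKM in replicate 3. It was thus low in every DPC library and at the limit of detection in every HMC library. The reads numbered 54, 88 and 70 in DPC and 0, 0 and 1 in HMC, and a count of 0 allows up to 0.0655 FPKM in HMC replicate 1 and 0.0648 FPKM in replicate 2 (3 reads per library). The ratio of read levels was 222 with a 95% exact binomial interval of 39.5 to 8817, an interval set by the single HMC read. The DPC mean was 1.60 ± 0.403 FPKM and the HMC mean 0.00712 ± 0.0123 FPKM (SD, n = 3 per group). The difference was 1.36 on the log2(FPKM + 1) scale (SE 0.12, 95% interval 1.07 to 1.65, limma adjusted p = 1.61e-05). The pseudocount of 1 compresses a gene at this level, and the difference was 3.97 with a pseudocount of 0.1 and 6.66 when limma voom was applied to the recovered reads.

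The scaling of the libraries moved these differences little. The median difference of all tested genes was -0.15 (log2, DPC minus HMC), and relative to it SMO stood at 5.96, GLI1 at 1.51 and PTCH1 at -1.01. Rescaling by median-of-ratios size factors brought the median to -0.01 and gave 5.92 for SMO, 1.41 for GLI1 and -1.05 for PTCH1, and quantile normalization brought it to 0.05 and gave 6.03, 1.43 and -1.03 in the same order. Calls higher in DPC made up 39.2% of all calls on the values as deposited, 49.2% with median-of-ratios factors and 53.8% with quantile normalization. The directions of the 3 genes were the same under each scaling.

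**Figure D2:**
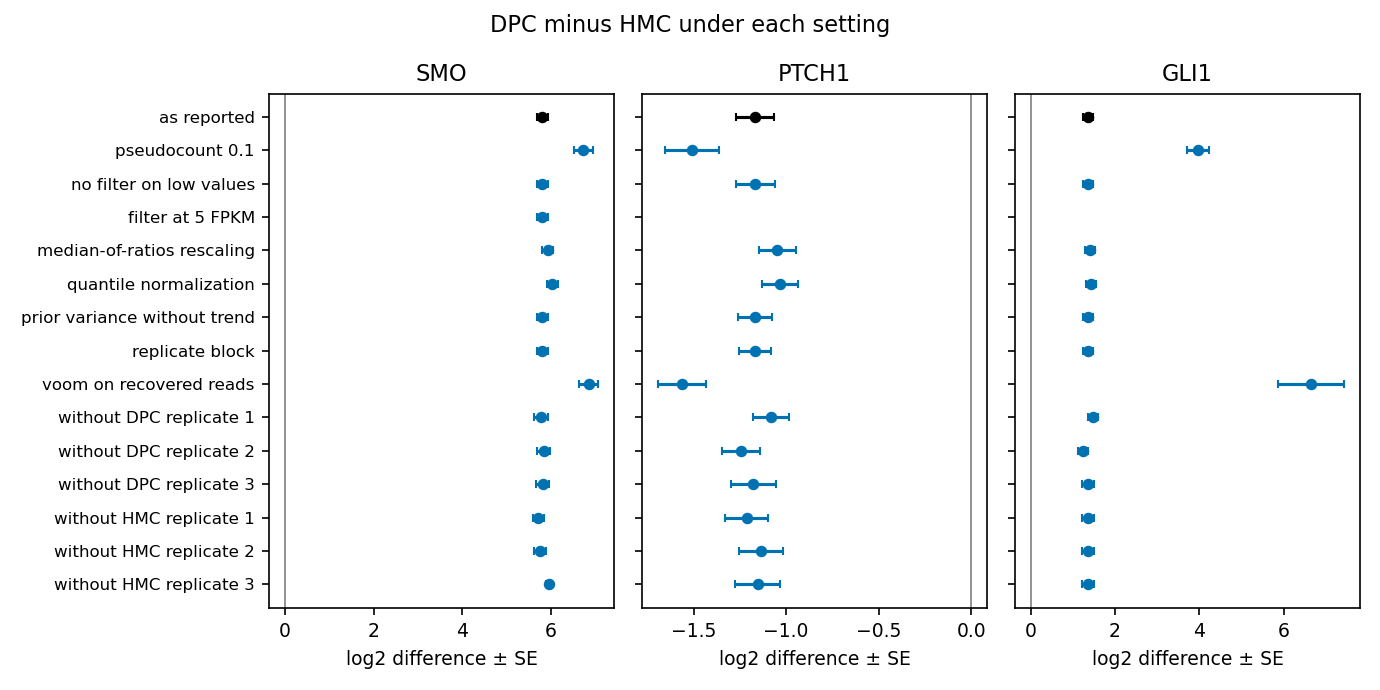
Log2 difference (x axis, DPC minus HMC, a separate scale in each panel) of SMO, PTCH1 and GLI1 under each processing setting (y axis), with bars of 1 SE. Black points are the values as reported, and an empty position means that the gene was removed by that filter. Every point for SMO and GLI1 lies above 0 and every point for PTCH1 below 0, and GLI1 runs from 1.25 without DPC replicate 2 to 6.66 with voom.

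The order of the 3 genes, which FPKM allows to be compared per length, differed between the cell types. In DPC, SMO was far above PTCH1 and GLI1, and the latter 2 were neighbours whose ranges overlapped: PTCH1 was 1.04 to 1.22 times GLI1 in the 3 libraries. In HMC, PTCH1 was the highest, SMO followed and GLI1 was the lowest, with no overlap between neighbours. The level of SMO relative to PTCH1 in the same library was 75.7, 49.1 and 57.9 in DPC replicates 1, 2 and 3, against 0.142, 0.141 and 0.255 in HMC replicates 1, 2 and 3. In every DPC library SMO transcripts thus outnumbered those of PTCH1 per length, and in every HMC library those of PTCH1 outnumbered those of SMO.

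Replicates of 1 group varied differently for each gene. The coefficient of variation of SMO was 4.13% in DPC and 39.1% in HMC, where counting error alone gives 1.58% and 16.3% at these read numbers. For PTCH1 it was 17.3% in DPC and 6.57% in HMC (9.76% and 5.57% from counting alone), and for GLI1 in DPC it was 25.1% (11.9% from counting alone). GLI1 and PTCH1 were both lowest in DPC replicate 1 and both highest in DPC replicate 2, while SMO was highest in replicate 1 and lowest in replicate 2. The exact 95% Poisson intervals of GLI1 in those libraries, 0.909 to 1.58 and 1.62 to 2.48 FPKM, did not overlap, whereas those of PTCH1, 1.19 to 1.82 and 1.74 to 2.51 FPKM, did. Spread beyond counting was not limited to GLI1. Over 11400 genes, squared deviations between DPC replicates 1 and 2 averaged 3.245 times those given by counting error alone. The level of GLI1 relative to PTCH1 in the DPC libraries was 0.818, 0.959 and 0.862.

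In HMC, replicate 3 held the highest SMO level and also the highest sum of fibroblast markers. SMO reached 0.646%, 0.733% and 1.29% of its DPC mean in HMC replicates 1, 2 and 3, and the fibroblast sum reached 3.26%, 3.17% and 3.75% of its DPC mean. All 8 fibroblast markers were above 0 in HMC, and the part of such RNA in the SMO level of HMC was not tested. Without HMC replicate 3 the SMO difference was 5.96. For PTCH1 the corresponding measurement was that it stood at 28.0%, 39.8% and 34.8% of its HMC mean in the DPC libraries, where the epithelial sum stood at 0.578% to 0.752% of its HMC mean. Markers of melanocytes (5.73 to 5.96 FPKM in DPC and 5.71 to 7.32 in HMC, with MLANA and SOX10 at 0 in DPC), immune cells (12.9 to 13.5 and 9.90 to 13.4) and endothelial cells (0.217 to 0.271 and 1.12 to 1.26, with CLDN5 at 0 in DPC) were low in both. Within the immune list the sums hid opposite differences: LAPTM5 stood at 9.46 FPKM in DPC and 0.257 in HMC, and CD14 at 2.47 and 10.1. CD68 did not pass and CD3E was not tested. The pericyte and muscle list summed to 9.78 to 10.9 FPKM in DPC and 15.6 to 17.7 in HMC, with RGS5 and PAX7 at 0 in HMC.

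GLI1 is 1 of 3 GLI transcription factors, and all 3 were higher in DPC. GLI2, which serves mainly as the pathway's activator, stood at 2.22, 2.55 and 2.60 FPKM in DPC and at 0.0126, 0.0622 and 0.0246 FPKM in HMC, where it rested on 1, 5 and 2 reads. Its difference was 1.74 (log2, SE 0.09, limma adjusted p = 3.90e-07), but like GLI1 it entered the test through its DPC libraries alone and so had to differ. GLI3, which serves mainly as a repressor when no ligand is present, stood at 11.7, 11.2 and 10.7 FPKM in DPC and at 3.37, 3.32 and 3.46 FPKM in HMC, a difference of 1.47 (SE 0.07, limma adjusted p = 1.93e-07). GLI3 was therefore the GLI family member with the highest level in every library, and in HMC it was close to the only one. GLI1 made up 8.01%, 12.8% and 10.7% of the summed GLI level in the DPC libraries and 0%, 0% and 0.609% in the HMC libraries, while GLI3 made up 71.1% to 77.3% in DPC and 98.2% to 99.6% in HMC.

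**Figure D3:**
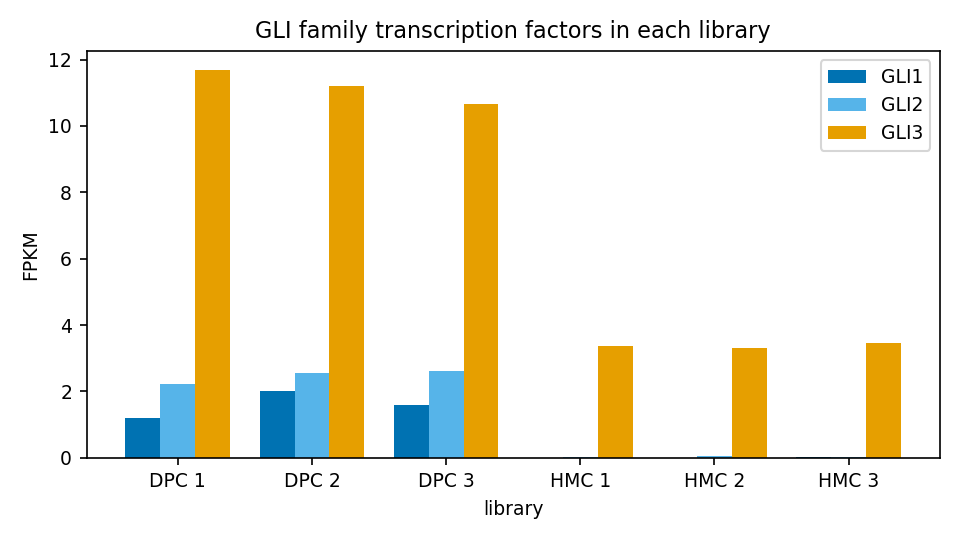
FPKM (y axis, linear from 0) of GLI1, GLI2 and GLI3 in each of the 6 libraries (x axis), 1 bar per gene and library. GLI3 is the tallest bar in every library, and GLI1 and GLI2 are near 0 in the HMC libraries.

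At the ligand end, little could be measured. Indian hedgehog (IHH) was counted with 0, 2 and 2 reads in DPC and 2, 6 and 5 in HMC, and desert hedgehog (DHH) with 0, 2 and 0 in DPC and 3, 3 and 1 in HMC. Both were under the filter and not tested, and Sonic hedgehog was not matched to a row and is not analysed here. Of 7 genes for ligands and their release found in the table, 2 were tested. DISP1, a transporter that releases lipid-modified ligand from the cell that makes it, was higher in DPC at 4.69 ± 0.0276 FPKM against 2.15 ± 0.133 in HMC (SD, n = 3 each; log2 difference 0.86). HHAT, the enzyme that attaches palmitate to the ligand, did not pass (difference -0.21, limma adjusted p = 0.203), but did without HMC replicate 3 (-0.36). SCUBE1, of a family of secreted proteins that help ligand release, was also under the filter, with 0, 0 and 1 reads in DPC and 25, 29 and 23 in HMC.

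Most transcripts of the proteins that sit with PTCH1 at the cell surface had the opposite direction to PTCH1. Of 8 receptor and co-receptor genes in the table, apart from PTCH1, 6 were tested. Of these, 5 passed as higher in DPC (83.3%, against 29.7% of all tested genes) and 1 as higher in HMC (16.7%, against 46.2%). Their median difference was 1.08 against -0.15 over all tested genes. Of the 6, 3 (GAS1, BOC and GPC3) had a mean under 0.5 FPKM in HMC and so passed the filter through DPC alone. The co-receptors that present ligand to PTCH1 were all among the 5 higher in DPC. GAS1 stood at 8.96, 7.72 and 7.27 FPKM in DPC and at 0.0832, 0.0822 and 0.163 FPKM in HMC (log2 difference 3.01), CDON at 3.83 ± 0.386 against 1.30 ± 0.177 (1.07) and BOC at 2.02 ± 0.225 against 0.417 ± 0.139 (1.10). The 3 co-receptors and PTCH1 thus had opposite directions. For GAS1 and BOC the filter had set the direction, and only CDON had means above 0.5 FPKM in both cell types. No GAS1, CDON or BOC value in DPC overlapped one in HMC, which held for 30.8% of all tested genes in that direction. GPC3, a glypican that competes with PTCH1 for ligand, was at 22.4, 23.5 and 24.4 FPKM in DPC, and in HMC at 0, 0 and 0.0768 FPKM (3 reads in replicate 3), with a log2 difference of 4.57. HHIP, a decoy receptor and pathway target, had 1, 1 and 4 reads in DPC and 0 in each HMC library and was not tested.

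MGRN1, a ubiquitin ligase that lowers the amount of SMO at the cell surface, was the tested gene of this list that was higher in HMC, as PTCH1 was. It stood at 23.3, 24.2 and 25.5 FPKM in DPC and at 36.8, 38.2 and 35.4 FPKM in HMC, with no overlap, and its difference of -0.58 was small beside the 5.81 of SMO. MOSMO found no matching symbol and is not analysed here.

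Between SMO and the GLI proteins, the genes divided. Of 24 transducers and GLI regulators in the table, 23 were tested, of which 8 were higher in DPC, 10 were higher in HMC and 5 did not pass, with a median difference of -0.18 that lay 0.02 below that of all tested genes. The share higher in DPC, 34.8%, and the share higher in HMC, 43.5%, were both near the shares over all tested genes. With GLI2 and GLI3 left aside, the group higher in DPC held KIF7, EVC, EVC2, PRKACB, SPOP and GNAS. KIF7, the ciliary kinesin that organises GLI proteins at the cilium tip, stood at 9.72, 10.5 and 9.12 FPKM in DPC and 2.70, 2.99 and 2.90 in HMC (log2 difference 1.48, SE 0.08, limma adjusted p = 4.41e-07). EVC and EVC2, which form the complex that relays SMO activity at the base of the cilium, were higher by 0.59 and 1.08.

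The kinase that counteracts SMO gave different directions for its subunits. PRKACB, a catalytic subunit of protein kinase A, which phosphorylates GLI2 and GLI3 and so starts their processing into repressors, was higher in DPC (11.8 ± 0.145 against 1.22 ± 0.350 FPKM, log2 difference 2.53). The other catalytic subunit in the list, PRKACA, did not pass, at 37.1 ± 1.30 against 35.0 ± 0.878 FPKM (0.08, limma adjusted p = 0.166), though it did with median-of-ratios factors (0.24) or quantile normalization (0.36). The regulatory subunit in the list, PRKAR1A, was higher in HMC (318.8 ± 1.31 against 206.5 ± 3.41 FPKM, difference -0.62). Another regulatory subunit, PRKAR2B, was outside the list and was met as the profile nearest to SMO. It went the other way, at 105.5 ± 0.726 FPKM in DPC against 0.978 ± 0.236 in HMC (5.76). The kinases that act on GLI proteins after protein kinase A were higher in HMC: GSK3B at 68.3 ± 3.62 against 30.4 ± 2.37 FPKM (-1.15) and CSNK1A1 at 88.5 ± 5.57 against 52.9 ± 2.24 FPKM (-0.73). ADCY6, an adenylyl cyclase that makes the cAMP which activates protein kinase A, and GPR161, the ciliary receptor that keeps cAMP high when ligand is absent, were higher in HMC too, by differences of -1.19 and -0.70.

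SUFU, which binds and restrains GLI proteins, stood at 6.58, 7.77 and 6.49 FPKM in DPC and 5.87, 6.73 and 6.71 FPKM in HMC. Its groups overlapped and its difference of 0.09 did not pass (limma adjusted p = 0.37), but it passed with median-of-ratios factors at 0.23 and with quantile normalization at 0.25. ULK3, a kinase that acts on GLI proteins, and ARRB2, a beta-arrestin that helps SMO reach the cilium, were higher in HMC (differences -0.97 and -1.06). CSNK1E, CUL3 and DYRK2 were also called higher in HMC at -0.24, -0.25 and -0.30, but all 3 calls were lost under quantile normalization, where CUL3 turned to 0.03, and those of CSNK1E and CUL3 also with median-of-ratios factors (both -0.09). IQCE and BTRC did not pass, but IQCE did without DPC replicate 3 (-0.26) and BTRC without HMC replicate 3 (-0.36). STK36 did not pass either.

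**Figure D4:**
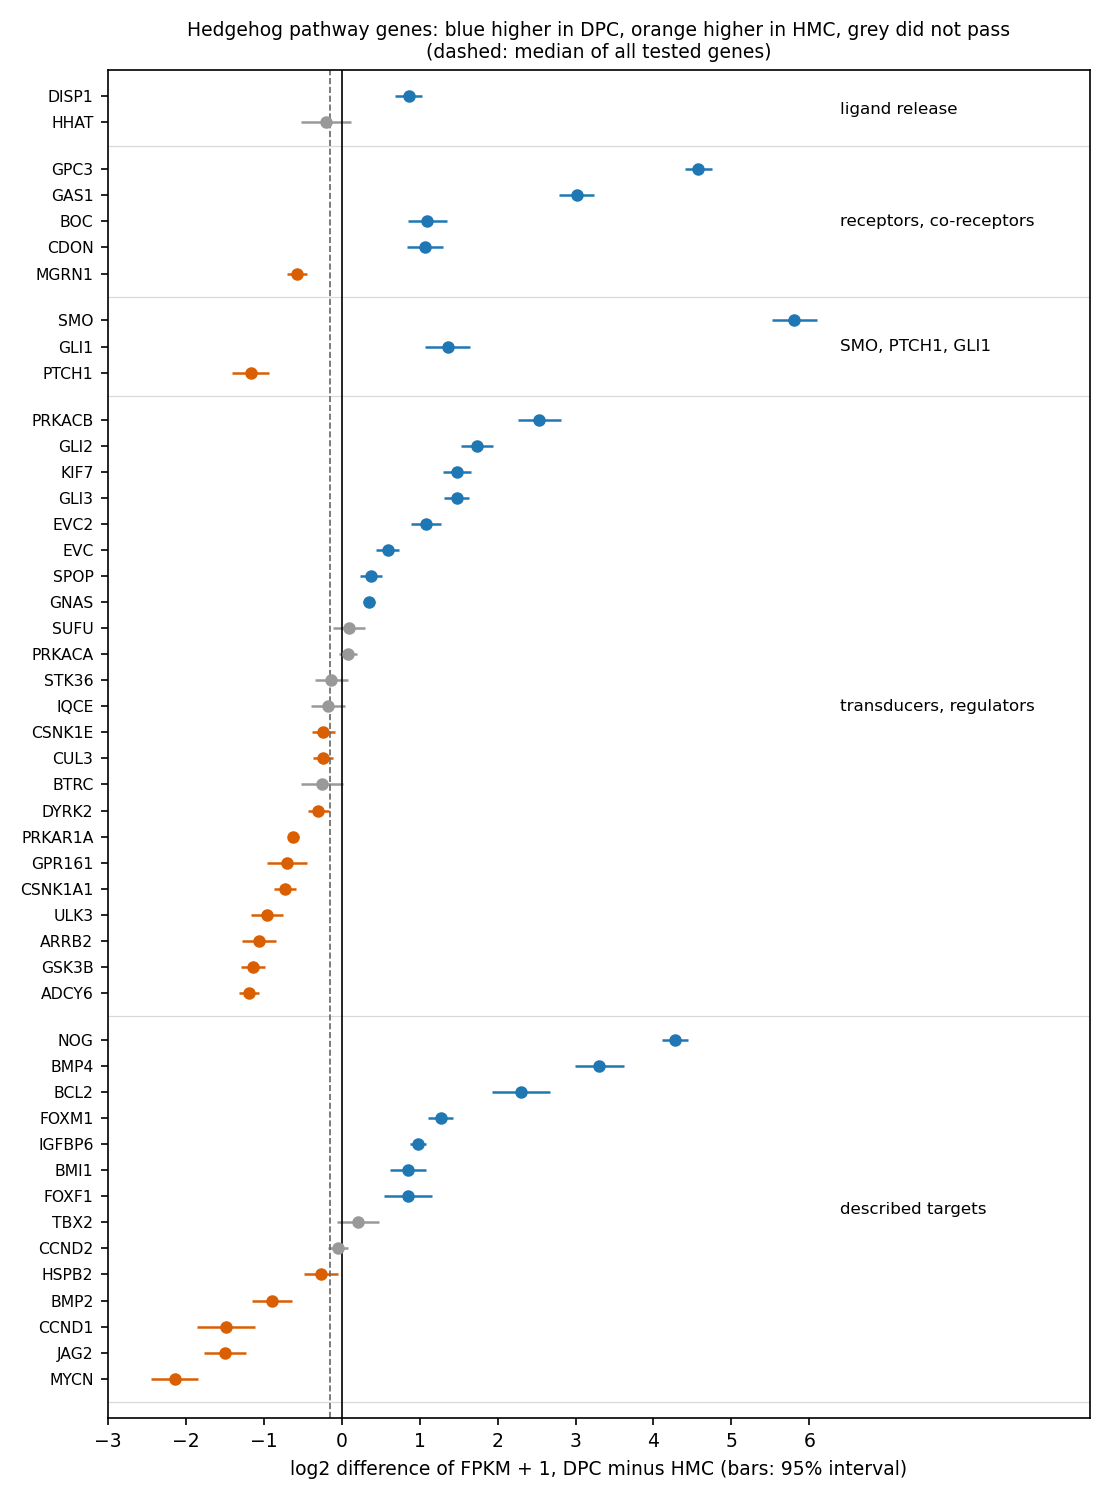
Log2 difference of FPKM + 1 (x axis, DPC minus HMC) with 95% intervals for SMO, PTCH1, GLI1 and other tested genes of the Hedgehog lists (y axis), grouped by role. Blue marks genes higher in DPC, orange genes higher in HMC, grey genes that did not pass, and the dashed line marks the median of all tested genes. On this scale SMO has the largest difference of the genes drawn, and PTCH1 lies on the opposite side of 0 from the co-receptors.

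Taking the ligand, receptor and transducer lists together and leaving SMO, PTCH1 and GLI1 out, 31 of 39 genes in the table were tested, and the calls split into 14 toward DPC (45.2%, against 29.7% of all tested genes) and 11 toward HMC (35.5%, against 46.2%), with a median difference of 0.08. Of the 31, 4 had a mean under 0.5 FPKM in 1 cell type. With median-of-ratios factors the split was 16 and 9, and with quantile normalization 16 and 8. The table's own Hedgehog signaling term, again without the 3 genes, held 41 tested genes, 15 higher in DPC (36.6%) and 18 in HMC (43.9%), with a median of -0.05, and 8 of them had a mean under 0.5 FPKM in 1 cell type. SMO, at 5.81, was further from 0 than any of the 31.

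**Figure D5:**
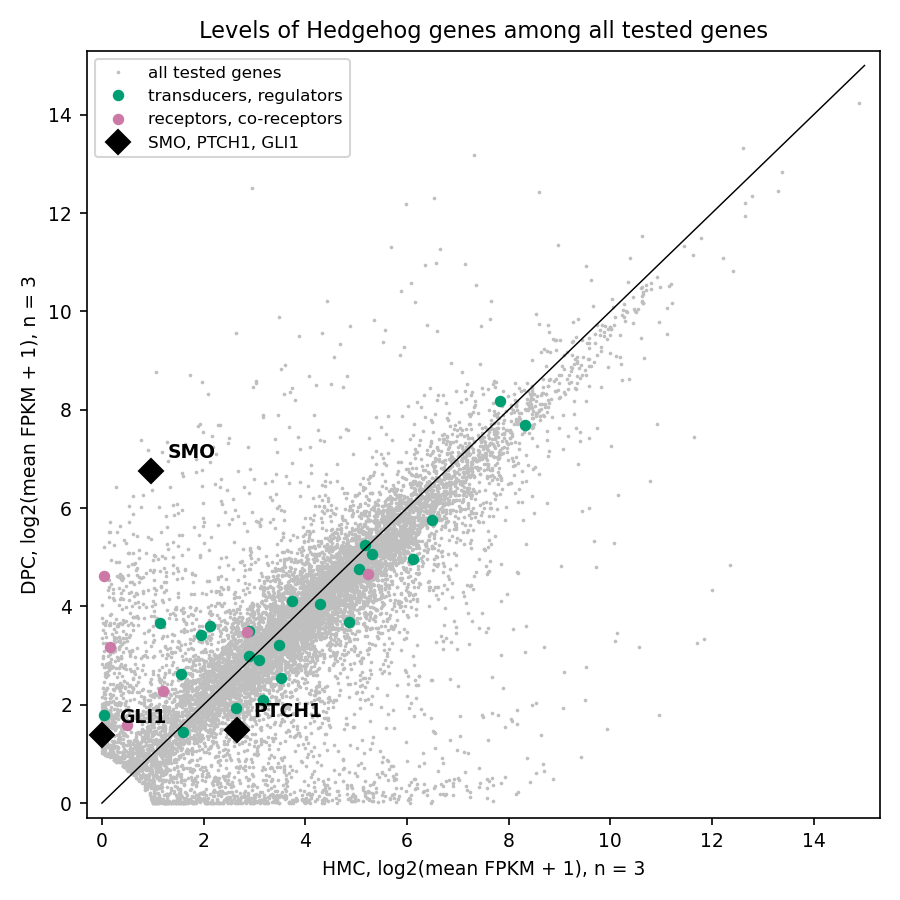
Mean level in HMC (x axis) against mean level in DPC (y axis), both as log2(mean FPKM + 1) with n = 3, for all tested genes (grey), receptors and co-receptors (pink), transducers and regulators (green) and SMO, PTCH1 and GLI1 (black diamonds). The line marks equal levels. SMO stands well above the line, GLI1 lies on the left edge near the lower end of the tested genes and PTCH1 lies below the line.

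Genes described elsewhere as targets of the pathway, as GLI1 and PTCH1 are, were taken from a list. Of 15 found in the table, 14 were tested: 7 were higher in DPC (50%, against 29.7% of all tested genes), 5 were higher in HMC (35.7%, against 46.2%) and 2 did not pass, with a median difference of 0.53. Of the 14, 5 had a mean under 0.5 FPKM in 1 cell type: BMP4, FOXF1 and TBX2 in HMC, and MYCN and JAG2 in DPC. These 5 passed the filter through the other cell type alone, which set their direction. NOG, a secreted antagonist of BMP proteins, had the largest difference toward DPC, at 30.9, 30.7 and 31.0 FPKM against 0.518, 0.716 and 0.709 FPKM in HMC (log2 difference 4.28). BMP4, a ligand of that family, was at 12.2 ± 1.76 against 0.334 ± 0.183 FPKM (3.30), and BCL2, an inhibitor of apoptosis, at 22.5 ± 0.678 against 3.88 ± 1.27 FPKM (2.30). FOXM1, IGFBP6, BMI1 and FOXF1 were higher in DPC by 1.27, 0.98, 0.85 and 0.85.

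Other targets were higher in HMC, where PTCH1 was higher. MYCN, a transcription factor of proliferating progenitors, stood at 4.14 ± 0.583 FPKM in HMC and 0.164 ± 0.150 in DPC (-2.14), and CCND1, which drives entry into the cell cycle, at 165.2, 158.7 and 163.3 FPKM against 54.4, 76.2 and 45.1 (-1.49). JAG2, a Notch ligand, and BMP2, a BMP ligand, followed with differences of -1.50 and -0.90. For MYCN and JAG2 the filter had set the direction. HSPB2 was called at -0.27, but the call was lost with median-of-ratios factors (-0.12), quantile normalization (-0.07) and voom on the recovered reads (-0.29). Without DPC replicate 2, or without any 1 of the HMC replicates, its difference was between -0.16 and -0.29 and its adjusted p between 0.0526 and 0.086. CCND2 did not pass at -0.05 on the deposited values, took the other sign with median-of-ratios factors (0.11, not passing) and passed as higher in DPC with quantile normalization (0.24). TBX2 did not pass at 0.20, but did as higher in DPC with quantile normalization (0.38). These genes also answer to other pathways in skin.

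SMO and the GLI proteins work in the primary cilium. Cilia themselves were not measured, and 2 lists of cilium genes were followed as transcripts only. Of their 50 tested genes, 26 were higher in DPC (52%, against 29.7% of all tested genes) and 8 in HMC (16%, against 46.2%). The other 16 did not pass, the median was 0.28, and all 50 had means above the filter in both cell types. In the list of transport genes 18 of 29 passed toward DPC (62.1%) and 3 toward HMC (10.3%). The other list held transition zone and BBSome genes, which gate the cilium and carry membrane proteins out of it. There 8 of 21 passed toward DPC (38.1%) and 5 toward HMC (23.8%), so its share toward DPC was nearer to that of all tested genes. IFT81, a tubulin-binding part of the transport trains, had the largest difference, at 9.27 ± 0.737 FPKM in DPC against 1.27 ± 0.311 in HMC (2.18), followed by IFT27 (1.56) and IFT80 (1.07). Toward HMC the largest were BBS4 (-0.82), LZTFL1 (-0.47) and IFT57 (-0.44, not passing after quantile normalization at -0.27). Each of these differences was smaller than that of SMO.

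The spermine oxidase row, which shares its symbol with the transducer in other annotations, behaved differently from SMO. It stood at 1.99, 1.87 and 1.59 FPKM in DPC and at 8.20, 7.97 and 6.96 FPKM in HMC, a difference of -1.63 (limma adjusted p = 7.60e-07). Reading that row as SMO would give the opposite direction.

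The genes with the profiles most like those of the 3 were found by the Euclidean distance of log2(FPKM + 1) over the 6 libraries, among 11705 tested genes with a symbol. These libraries fall into 2 groups, so likeness is mostly likeness of the group levels. Nearest to SMO was PRKAR2B, a regulatory subunit of protein kinase A, at a distance of 0.20, with 106.0, 104.7 and 105.8 FPKM in DPC and 0.887, 0.800 and 1.25 FPKM in HMC. It was also highest in HMC replicate 3, as SMO was. At distances of 0.81 to 0.95 came a glypican (UNQ474/PRO937, GPC4), a type XI collagen chain (COLL6), the complement protease MASP1 (CRARF) and the hypoxia-responsive transcription factor EPAS1 (BHLHE73).

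Among the nearest to GLI1 were the thyroid hormone receptor THRB (ERBA2, 0.23), the parathyroid hormone receptor PTH1R (PTHR1, 0.27), the transcription factor ARNT2 (BHLHE1, 0.30) and the row KIAA2028 (0.31). THRB stood at 1.51, 1.98 and 1.74 FPKM in DPC, and like GLI1 it was lowest in replicate 1 and highest in replicate 2. Nearest to PTCH1 were ULK4, a kinase-like protein (0.30), C9orf50 (0.36), EFR3B (0.36), PPAPDC2 (0.37) and Kiaa0239 (0.38). ULK4 stood at 2.01, 2.23 and 1.84 FPKM in DPC and 5.16, 5.76 and 5.45 FPKM in HMC, and it was highest in replicate 2 of both cell types, as PTCH1 was.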

How the data were processed

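RNA-seq of 3 DPC and 3 HMC cultures was used. Per the labels' protocols, Trizol was used for RNA and a TruSeq stranded kit for mRNA libraries. DESeq 1.20.0, HISAT2 2.2.1.0 and Trimmomatic are named, without roles, per the submitters' processing notes. The read counter and genome build are not given in the sources, and no coordinates or sequences are printed. The values deposited by the authors are FPKM, 1 column per sample. Each gene's values were whole multiples of 1 step in every library (100% of genes, relative tolerance 1e-09), which gave reads up to a common factor per gene.

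Groups were compared with limma 3.58.1 (R 4.3.3) on log2(FPKM + 1), two-sided, with a trended prior variance. Genes entered with a mean over the 6 libraries of 0.5 FPKM or more, and p-values were adjusted by Benjamini-Hochberg over all 11883. The code was tested on simulated data. Genes were matched by symbol and older symbols (144 of 174 listed). Of rows with the same symbol, that with the highest mean was used. Named were the 3 genes, the genes of the Hedgehog lists, the 3 largest passing cilium differences each way, the 5 nearest profiles and markers. The genes and lists were chosen with earlier results of these data known. Alternatives were a pseudocount of 0.1, other filters and scalings, no trend, a replicate block, each library left out and, added after seeing the data, voom on recovered reads. Some genes that these rules select are counted in the list totals but not reported here by name.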

Additional observations from a re-analysis of the deposited data

How the results depend on the processing

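SMO, GLI1 and PTCH1 kept their directions and their adjusted p under 0.05 in every alternative that gave a value: 14 for SMO, 13 each for GLI1 and PTCH1, which a filter at 5 FPKM removed. With 1 library left out at a time, SMO ranged from 5.71 to 5.96, GLI1 from 1.25 to 1.47 and PTCH1 from -1.24 to -1.08. An arm with 2 libraries left has its spread pooled with the other arm's. Over the other alternatives SMO ranged from 5.81 to 6.85, GLI1 from 1.36 to 6.66 and PTCH1 from -1.56 to -1.03. The genes called over the whole table numbered 9020, 8554 to 8751 with a library left out and 6808 to 9851 otherwise. Of the other Hedgehog genes 14 were called higher in DPC, again 14 with any library left out, but 8 with the filter at 5 FPKM, which tests fewer genes. Those higher in HMC numbered 11, 11 to 13 with a library left out and 8 to 12 otherwise. Among single genes, CUL3 (-0.25) turned to 0.027 under quantile normalization and CCND2 (-0.05) to 0.11 under median-of-ratios rescaling and 0.24 under quantile normalization, and the cause was not tested. Replicate numbers are shared between DPC and HMC, but deviations of same-numbered libraries correlated at only 0.02, 0.03 and 0.01, so the numbers were not taken as pairs. Replicates 1 and 2 of each cell type did correlate best with their own number in the other (0.023 and 0.034), while DPC replicate 3 and HMC replicate 3 did not (0.006). With the replicate block 8924 genes were called, and SMO stood at 5.81, GLI1 at 1.36 and PTCH1 at -1.17. Depth limits GLI1 in HMC (0, 0 and 1 reads) and the ligand genes, whose levels there are not measurable.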

Other observations

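Other genes that the table annotates with the smoothened or Hedgehog terms were picked out after their values were seen, so they are given as values. The homeobox factors of limb and craniofacial mesenchyme PRRX1 (PMX1) and PRRX2 (Prx2) were among the most abundant of them in DPC, at 353.7 ± 7.25 and 660.4 ± 31.5 FPKM, against 25.4, 25.1 and 26.9 FPKM for the first and 45.2 ± 4.13 FPKM for the other in HMC (SD, n = 3). SHOX2 (OG12X), a related homeobox factor, stood at 7.10, 6.98 and 7.32 FPKM in DPC and at 0.106, 0.126 and 0.104 in HMC. DZIP1 (DZIP), a protein of the cilium base that binds GLI proteins, stood at 51.7 ± 1.01 FPKM in DPC and 8.90 ± 0.362 in HMC, a log2 difference of 2.41. In the other direction, the pioneer factor FOXA1 (Hnf3a) stood at 0, 0.113 and 0 FPKM in DPC and at 10.9, 8.62 and 10.3 in HMC, and PAX6 at 0.979 ± 0.388 and 9.10 ± 0.693 FPKM.

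Among the genes with the Hedgehog term, a kinase and an arrestin also differed. GRK3 (ADRBK2), a receptor kinase, stood at 4.40, 4.40 and 4.16 FPKM in DPC and at 0.215, 0.212 and 0.270 in HMC (log2 difference 2.11). Its groups did not overlap, which held for 30.8% of all tested genes in that direction. ARRB1 (ARR1), the beta-arrestin related to ARRB2, stood at 0.389 ± 0.0839 FPKM in DPC and 2.43 ± 0.472 in HMC (-1.30), the same direction as ARRB2. GRK3 in HMC and ARRB1 in DPC had means under 0.5 FPKM, so each passed the filter through the other cell type alone. PTCHD1, a relative of PTCH1, was at 0.891, 0.853 and 0.562 FPKM in DPC and was listed at 0 in all 3 HMC libraries, which is the reverse of PTCH1, and was under the filter and not tested. Over all genes with a term that names the smoothened signaling pathway, 83 were tested, of which 48 were higher in DPC (57.8%, against 29.7% of all tested genes) and 18 in HMC (21.7%, against 46.2%), with a median of 0.35. Those annotated as negative regulators numbered 14, 10 of them higher in DPC (71.4%) and 3 in HMC (21.4%). Those annotated as positive regulators numbered 18, 9 of them higher in DPC (50%) and 5 in HMC (27.8%). A mean under 0.5 FPKM in 1 cell type was found for 10 of the 83, 2 of the 14 and 3 of the 18, which passed the filter through the other cell type alone.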
